A study of Mus musculus with 8 samples.

Results

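Heat shock proteins and chaperones help other proteins to fold, keep damaged ones from clumping and pass hopeless ones on for breakdown. The 87 genes described here are the rows of the deposited tables whose mouse symbol begins with Hspa, Hspb, Hspd, Hspe, Hsp90, Hsph, Dnaja, Dnajb or Dnajc, or is one of Cct2 to Cct8, Tcp1, Hsf1, Hsf2, Bag3 or Stip1, out of 18631 genes in all. Their polyadenylated RNA was sequenced from 2 epithelial cell lines of mouse kidney, with 2 libraries in each of 4 groups. The line pkd1(PH) is heterozygous for Pkd1 (Pkd1+/-), the polycystin-1 gene, whose mutation causes most dominantly inherited polycystic kidney disease, and the line null(PN) has no intact copy (Pkd1-/-). Each received DMSO, the solvent, or 50 nM THZ1, a covalent inhibitor of the transcription kinase CDK7, for 6 h. All groups grew in the same medium, with low serum, insulin, transferrin, selenium, T3 and interferon gamma. Each genotype is 1 line, so loss of Pkd1 and any other difference between the lines cannot be told apart. Nothing in the labels says that the 2 libraries of a group came from separate cultures, so p-values here reflect library spread that may be technical only.

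The cytosol holds several chaperone machines. Hsp70 proteins bind short greasy stretches of unfolded chains, J proteins (the DNAJ families) deliver clients to them and set off their ATPase, and Hsp90 finishes signalling proteins that Hsp70 hands over through Stip1. TRiC is a closed barrel of Cct subunits that folds actin and tubulin, and small heat shock proteins hold unfolded chains until Bag3 links them to Hsp70 and autophagy. The endoplasmic reticulum (ER) has its own Hsp70 (Hspa5, BiP) and Hsp90 (Hsp90b1, GRP94), induced by the unfolded protein response, and mitochondria have Hspa9 and the Hspd1 and Hspe1 folding chamber. In the heat shock response the factor Hsf1 binds repeats of the unit GAA, the heat shock element, and raises genes such as Hspa1b, Dnajb1 and Bag3 at once. CDK7, the target of THZ1, is a subunit of the general transcription factor TFIIH and modifies RNA polymerase II early in transcription.

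The promoters of several genes that the results turn on hold matches to 2 stress elements, and the sequences shown are from RefSeq on GRCm38.p6, printed along the gene's own strand with motif matches in capitals. First come the 250 bases before the start of 3 ER chaperone genes, shown because they share a match to the ER stress response element (CCAAT, 9 bases of any kind, CCACG) while their mRNA levels moved apart. Hspa5 lies at chr2:34771840-34772089 on the plus strand, Hsp90b1 at chr10:86705445-86705694 on the minus strand and Dnajc3 at chr14:118937682-118937931 on the plus strand.
Hspa5: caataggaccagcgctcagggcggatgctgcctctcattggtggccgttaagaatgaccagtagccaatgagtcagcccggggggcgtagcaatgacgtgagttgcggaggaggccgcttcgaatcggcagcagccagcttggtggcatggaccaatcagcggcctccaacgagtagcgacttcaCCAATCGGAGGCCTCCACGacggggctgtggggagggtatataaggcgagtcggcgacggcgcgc
Hsp90b1: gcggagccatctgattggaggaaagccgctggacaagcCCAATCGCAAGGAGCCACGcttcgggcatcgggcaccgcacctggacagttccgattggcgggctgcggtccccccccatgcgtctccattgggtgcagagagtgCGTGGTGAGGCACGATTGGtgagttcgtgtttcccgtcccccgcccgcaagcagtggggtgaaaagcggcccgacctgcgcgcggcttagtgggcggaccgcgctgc
Dnajc3: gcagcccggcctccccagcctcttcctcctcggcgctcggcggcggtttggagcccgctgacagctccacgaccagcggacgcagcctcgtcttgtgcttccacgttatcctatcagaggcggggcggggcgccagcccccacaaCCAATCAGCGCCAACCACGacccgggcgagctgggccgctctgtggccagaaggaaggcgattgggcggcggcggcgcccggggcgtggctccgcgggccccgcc
Hsp90b1 held 2 matches, the second on the opposite strand, and the others held 1 each. On either strand of the window from 250 bases before to 50 after the start, CCAAT and CCACG with 9 bases between them were found in these 3 of the 71 members with a window (4.23%) and in 37 of 27025 genes with one (0.137%).

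The heat shock element was searched on both strands as GAA, TTC and GAA with 2 bases of any kind between one unit and the next. It was found in Dnajb6, Hspd1, Hspe1 and Hsph1, that is 4 of 71 members (5.63%), against 179 of all 27025 genes (0.662%). Hspd1 and Hspe1 lie head to head, and their gene models overlap by 96 bases. A pair of overlapping matches, 1 on each strand, belongs to the window of Hspe1 and to 1 of the 2 windows of Hspd1, while the other window of Hspd1, at the outer end of its gene model, held 0 matches. The stretches shown are the 30 bases around this pair, read along Hspe1 at chr1:55088053-55088082, and around the match before Dnajb6 at chr5:29735844-29735873, both on the plus strand.
Hspe1 and Hspd1: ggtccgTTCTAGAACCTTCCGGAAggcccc
Dnajb6: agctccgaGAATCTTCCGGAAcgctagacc
The shorter element, GAA and TTC with 2 bases between them, which reads the same on both strands and is the first part of the longer one, was found in 16 of the 71 members (22.5%) and 2442 of all genes (9.04%). It occurs once before Hspa1b, at chr17:34959239-34959488 on the minus strand, which is shown because it had the largest rise between the lines among the tested members.
Hspa1b: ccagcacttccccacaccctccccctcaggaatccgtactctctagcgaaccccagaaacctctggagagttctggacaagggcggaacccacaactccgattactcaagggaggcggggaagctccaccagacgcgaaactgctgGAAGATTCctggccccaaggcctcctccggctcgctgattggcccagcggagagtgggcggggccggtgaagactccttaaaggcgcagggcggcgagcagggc
A match describes these letters only, and binding was not measured.

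The depth was estimated from the steps between low values at 17300000 to 18300000 fragments per library, and libraries of a group correlated at 0.99728 to 0.99829 across the tested genes. Pkd1 was at 4.58 and 5.30 FPKM (fragments per kilobase of transcript, scaled to the mapped fragments of the library) in the heterozygous DMSO libraries, 3.71 and 4.20 in heterozygous THZ1, 1.69 and 1.32 in null DMSO and 1.22 and 1.21 in null THZ1, lower in every null library than in any heterozygous one. Of 7 kidney tubule markers, 5 reached 1 FPKM, with Cdh16, Pax2 and Pax8 among them, while the epithelial markers Cdh1 and Epcam stayed at 0.42 FPKM or below. The summed level of the 7 was 930.2 to 1008 FPKM in the heterozygous and 704 to 742 FPKM in the null libraries, with Krt8 at 313 to 339 and 178 to 186 FPKM and Krt18 at 285 to 318 and 146 to 171 FPKM. Cdh16 went the other way, at 176 to 188 FPKM in the heterozygous and 259 to 314 FPKM in the null libraries. With THZ1 in null cells Pax2 was at 22.7 and 25.0 against 43.8 and 46.1 FPKM, and Pax8 at 47.7 and 50.8 against 77.2 and 77.7 FPKM. Of 6 fibroblast markers only Col1a1 reached 1 FPKM, at 2.9 to 3.55 in the heterozygous and 15.7 to 23.9 in the null libraries. Endothelial markers summed to at most 0.2 FPKM, and of the leukocyte markers Adgre1 and Cd3e were listed at 0 throughout while Cd68 was at 1.72 to 4.82 FPKM. Krt8, Krt18, Cdh16, Pax2, Pax8 and Col1a1 moved with the line. With THZ1 in null cells Pax2, Pax8 and Krt18 (145.94 and 150.72 against 170.65 and 163.5 FPKM) were lower. Col1a1, Cdh16 (313.64 and 299.39 against 259.03 and 268.94 FPKM) and Cd68 (4.82 and 3.94 against 2.09 and 1.72 FPKM) were higher, so the tubule markers did not move in 1 direction. Their part in the differences reported below was not tested.

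Of the 87 members, 71 had a mean of at least 1 FPKM over the 8 libraries and were tested, and 16 were below that. The most abundant was Hspa8, the constitutive cytosolic Hsp70 (Hsc70), at 819 to 1932 FPKM, followed by the Hsp90 genes Hsp90ab1 and Hsp90aa1 at 676 to 1128 FPKM. The TRiC subunits lay between 123 and 301 FPKM, and the ER pair Hspa5 and Hsp90b1 between 349.5 and 500.1 FPKM. The heat-inducible Hspa1b was at only 7.34 to 26.8 FPKM and its neighbour Hspa1a at 0.04 to 1.60 FPKM. All members together made up 1.68% to 2.10% of the FPKM total of a library. In these bulk samples fewer cells of a kind and less RNA per cell cannot be told apart.

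**Figure D1:**
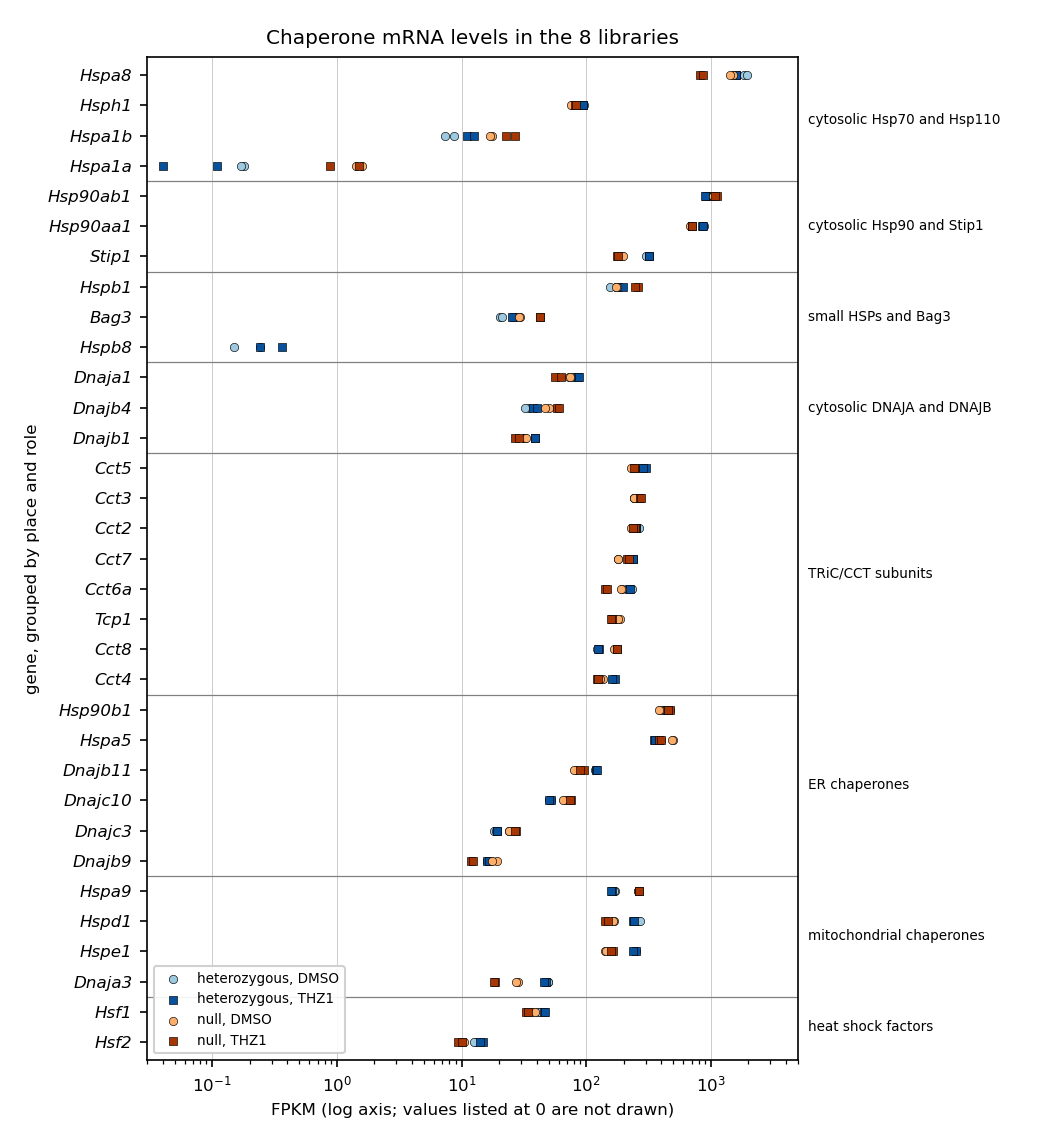
FPKM of 33 chaperone genes on a log axis, 1 point per library, with colours for line and circles or squares for DMSO or THZ1. Hspa8 is lowest in the 2 null THZ1 libraries (819 and 868 FPKM), and Hspa1b is higher in all 4 null libraries (17.0 to 26.8 FPKM) than in the heterozygous ones (7.34 to 12.7 FPKM).

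The first comparison asked how the null line differed from the heterozygous line under DMSO. Null cells had higher mRNA of the inducible Hsp70 gene Hspa1b, of Bag3 and Hspb6, of the ER Hsp70 Hspa5 and of the mitochondrial Hsp70 Hspa9. They had lower mRNA of Hspa8, Hsp90aa1, Stip1 and the mitochondrial genes Hspd1, Hspe1 and Dnaja3. Of the 71 tested members, 21 were higher and 33 lower at a limma adjusted p below 0.05, 76.1% in all, where 70% of all tested genes were called (29% higher, 41% lower). The median member differed by -0.10 on the log2(FPKM + 1) scale, used for every difference below, and the median tested gene by -0.07. Scaling by the median of ratios split the members 26 to 26, and by the upper quartile 24 to 26. All differences are given as null minus heterozygous with limma's standard error, and this scale understates the change of low genes.

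Among the cytosolic Hsp70 and Hsp110 genes, 2 of 8 tested members were higher and 5 lower, beside 29% and 41% of all tested genes. Hspa1b was at 7.34 and 8.75 FPKM in heterozygous and 17.5 and 17.0 FPKM in null cells. The groups did not overlap, and the difference was 1.02 ± 0.09 (SE; limma adjusted p = 6.11e-07), the largest rise among the tested members. Hspa1a, its near-identical copy on chromosome 17, was below the level filter and so not tested, at 0.18 and 0.17 FPKM in heterozygous and 1.60 and 1.43 FPKM in null cells, and how reads shared by the copies were counted is not given in the sources used here. Their sum, which depends less on that split, was 7.52 and 8.92 FPKM in heterozygous and 19.1 and 18.5 FPKM in null cells. Hspa8 went the other way, at 1845 and 1932 FPKM in heterozygous and 1493 and 1424 FPKM in null cells (-0.37 ± 0.05, adjusted p = 1.67e-05). Hspa2, a Hsp70 best known from the testis, differed by -0.74 ± 0.06, with 16.2 and 18.3 FPKM in heterozygous and 9.98 and 9.85 FPKM in null cells. Hsph1, a Hsp110 that lets Hsp70 release its nucleotide, differed by -0.33 ± 0.04, with 94.9 and 96.9 FPKM in heterozygous and 76.3 and 75.5 FPKM in null cells. In each of these 4 genes both null DMSO libraries lay on 1 side of the heterozygous ones. Hspa1b and Hspa2 are among the largest changes picked by rule, for which this was a condition.

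The cytosolic Hsp90 pair split by isoform. Hsp90aa1, the inducible form, was at 884 and 867 FPKM in heterozygous and 693 and 676 FPKM in null cells (-0.35 ± 0.04, limma adjusted p = 4.56e-06). Hsp90ab1, the constitutive form, was at 953 and 963 FPKM in heterozygous and 1052 and 1039 FPKM in null cells, a difference of 0.13 ± 0.04 (adjusted p = 0.0158). Its call was lost without heterozygous DMSO replicate 1 (adjusted p = 0.0529) or null DMSO replicate 1 (adjusted p = 0.0806). The ratio of the first form to the second was 0.928 and 0.901 in heterozygous DMSO, 0.659 and 0.65 in null DMSO. Stip1, the adaptor that joins Hsp70 to Hsp90, was at 303 and 321 FPKM in heterozygous and 193 and 197 FPKM in null cells (-0.68 ± 0.04, adjusted p = 1.31e-08). So both Hsp90aa1 and Stip1 were lower in every null library, while Hsp90ab1 was slightly higher.

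Of the 4 tested small heat shock proteins and Bag3, 2 were higher and 1 lower, beside 29% and 41% of all tested genes. Bag3 was at 20.3 and 21.2 FPKM in heterozygous and 29.2 and 28.8 FPKM in null cells (0.46 ± 0.05, limma adjusted p = 2.2e-06). Hspb6 (Hsp20) was at 9.76 and 10.5 FPKM in heterozygous and 15.5 and 17.9 FPKM in null cells (0.66 ± 0.07). Hspb1, the abundant Hsp27 homologue, was at 154 and 179 FPKM in heterozygous and 178 and 173 FPKM in null cells, and its groups overlapped (adjusted p = 0.296). It was called only without heterozygous DMSO replicate 2 (adjusted p = 0.0172). Hspb8, the partner of Bag3, was at 0.24 and 0.15 FPKM in heterozygous DMSO and 0.36 and 0.24 FPKM in heterozygous THZ1, and was listed at 0 in all null libraries. Among the cytosolic DNAJA and DNAJB genes only Dnajb5 (0.69 ± 0.08) and Dnajb4 (0.51 ± 0.05) were called of 7 tested, both higher in null cells. Dnaja1 and Dnajb1, common J protein partners of cytosolic Hsp70, differed by -0.09 ± 0.05 and 0.03 ± 0.05 (adjusted p = 0.106 and 0.62). Dnaja1 was called without either null THZ1 library, which changes only the shared spread (adjusted p = 0.0492 and 0.0495).

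The TRiC subunits, which are built into 1 complex in equal numbers, did not move together. Cct8 was higher in null cells, at 169 and 169 against 124 and 123 FPKM (0.45 ± 0.04, limma adjusted p = 2.18e-07). Tcp1 (Cct1) differed by 0.12 ± 0.04 (adjusted p = 0.0138), a call lost without null DMSO replicate 1 (adjusted p = 0.117). Cct4 (-0.34 ± 0.04), Cct7 (-0.28 ± 0.04), Cct6a (-0.27 ± 0.04) and Cct5 (-0.26 ± 0.04) were lower. Cct2 was also lower (-0.14 ± 0.04, adjusted p = 0.00678), but not under scaling by the median of ratios (adjusted p = 0.212) or the upper quartile (adjusted p = 0.108), nor without null DMSO replicate 2 (adjusted p = 0.0658). Cct3 differed by 0.04 ± 0.04 (adjusted p = 0.383) and was called higher only under those 2 scalings (adjusted p = 0.0329 and 0.0315). The most abundant subunit stood 2.24 and 2.31 times above the least abundant in heterozygous DMSO libraries and 1.86 and 1.87 times in null DMSO libraries.

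Of the 12 members listed as ER chaperones, 7 were higher and 3 lower in null cells, with a median of 0.22, beside 29% and 41% of all tested genes. Hspa5 was at 394 and 399.6 FPKM in heterozygous and 500.1 and 485 FPKM in null cells (0.31 ± 0.04, limma adjusted p = 1.18e-05). Hsp90b1, which carries 2 matches to the same element in the sequence printed above, was at 471 and 452 FPKM in heterozygous and 388 and 384 FPKM in null cells (-0.26 ± 0.04, adjusted p = 9.85e-05). Dnajc3 (p58IPK), which holds back the kinase of the ER stress response, was at 18.4 and 19.0 FPKM in heterozygous and 23.9 and 24.2 FPKM in null cells (0.35 ± 0.05). So the 3 genes that share the match differed in direction, and the groups of each did not overlap. The J proteins of the ER differed as well, with Dnajb11 (ERdj3), a soluble partner of Hspa5, lower at 82.2 and 80.5 against 117 and 119 FPKM (-0.54 ± 0.04). Dnajc10 (ERdj5), a disulfide reductase, was higher by 0.36 ± 0.04. The membrane J proteins Dnajc18 (0.70 ± 0.07) and Dnajc1 (0.59 ± 0.06) were higher most clearly. Dnajb9 (ERdj4) was higher by 0.18 ± 0.06 (adjusted p = 0.0176). That call was lost without either heterozygous DMSO library (adjusted p = 0.0514 and 0.0524), and without null DMSO replicate 1 the difference was 0.11 (adjusted p = 0.178).

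Of the 8 members listed as mitochondrial chaperones, 1 was higher and 5 were lower, with a median of -0.41, beside 29% and 41% of all tested genes. The exception was Hspa9 (mortalin), the matrix Hsp70, at 171 and 167 FPKM in heterozygous and 259 and 262 FPKM in null cells (0.62 ± 0.04, limma adjusted p = 1.16e-08). The barrel and the lid of the folding chamber, encoded by the head-to-head pair whose shared match is printed above, were both lower. Hspd1 (Hsp60) was at 267 and 269.6 FPKM in heterozygous and 166 and 165 FPKM in null cells (-0.69 ± 0.04, adjusted p = 6.83e-09), and Hspe1 (Hsp10) at 242 and 253 FPKM in heterozygous and 142 and 145 FPKM in null cells (-0.78 ± 0.04, adjusted p = 7.28e-09). Dnaja3 (Tid1), the J protein that works with Hspa9, was at 49.6 and 49.1 FPKM in heterozygous and 28.5 and 27.4 FPKM in null cells (-0.80 ± 0.05, adjusted p = 9.33e-09), the most negative difference of the tested members. Dnajc15, a J protein of the import motor, differed by -0.66 ± 0.05. Each of these genes had both null DMSO libraries on 1 side of the heterozygous ones. All are among the largest changes picked by rule, for which this was a condition. Summed over 12 ER and 8 mitochondrial genes, the ratio of ER to mitochondrial FPKM was 1.38 and 1.34 in heterozygous DMSO and 1.71 and 1.66 in null DMSO. The pseudogene copies that RefSeq lists for Hspe1, Hspd1 and Hspa9 could take up or lend reads, and how they were counted is not given in the sources used here. Reads from the overlap of Hspd1 and Hspe1 cannot be told apart without strand, whose handling is not given either.

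Of the other 16 tested DNAJC genes, 3 were higher and 8 lower, beside 29% and 41% of all tested genes. Dnajc9, a histone-binding J protein, was at 55.9 and 56.3 FPKM in heterozygous and 38.2 and 36.8 FPKM in null cells (-0.57 ± 0.04). Dnajc7 (-0.50 ± 0.04), which holds clients between Hsp70 and Hsp90, and Dnajc8 (-0.43 ± 0.04), a spliceosome protein, were lower as well. Dnajc5, the cysteine string protein of secretory vesicles, was higher by 0.30 ± 0.04. Dnajc5, Dnajc7 and Dnajc8 were named after their values were seen. Of the factors that drive the heat shock genes, Hsf2 differed by -0.31 ± 0.06 and Hsf1 by -0.13 ± 0.05 (limma adjusted p = 0.000748 and 0.038). The Hsf1 call was lost under all 3 other scalings (adjusted p = 0.152 to 0.355), and without heterozygous DMSO replicate 2 the difference was -0.08 (adjusted p = 0.229). It was also lost without null DMSO replicate 1 (adjusted p = 0.237) or either heterozygous THZ1 library (adjusted p = 0.0546 in both). Neither factor gene was called higher in null cells. These are mRNA levels, the activity of the factors was not measured, and their part in the Hspa1b difference was not tested.

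**Figure D2:**
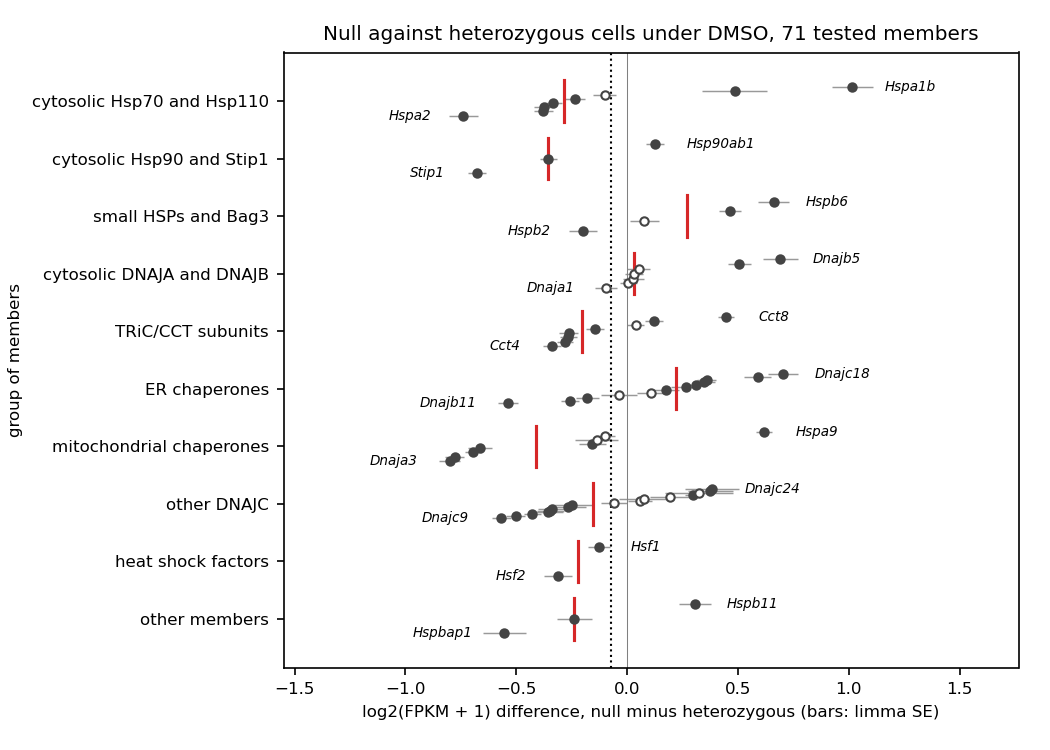
Null minus heterozygous cells under DMSO for the 71 tested members, by group, in log2(FPKM + 1) with limma standard errors; filled points passed an adjusted p of 0.05. Red bars are group medians, the dotted line is the median of all tested genes (-0.07), and the lowest and highest member of each group are named; ER genes lie mostly above it and mitochondrial genes below, with Hspa9 as the exception.

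The second comparison asked how THZ1 changed the heterozygous line. The stress-inducible genes Hspa1b, Bag3 and Dnajb1 rose, as did Dnajc9, while Hspa8 fell. In all 10 of 71 members were higher and 5 lower (21.1%), where 22.4% of all tested genes were called (12.2% higher, 10.3% lower). The median member differed by -0.001 and the median tested gene by 0.01. FPKM is relative to the other RNA of a library, and no scaling used here gives amounts per cell. Scaled by library totals the split was 5 higher to 12 lower, and by the median of ratios 7 to 6. The count higher fell to 6 without heterozygous DMSO replicate 1, 5 without heterozygous THZ1 replicate 1 and 4 without heterozygous THZ1 replicate 2. The count lower fell to 3 without heterozygous DMSO replicate 2 and to 1 without either heterozygous THZ1 library.

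Hspa1b rose from 7.34 and 8.75 FPKM under DMSO to 11.0 and 12.7 FPKM under THZ1 (0.51 ± 0.09, limma adjusted p = 0.00328), and its sum with Hspa1a from 7.52 and 8.92 to 11.1 and 12.8 FPKM. Bag3 rose from 20.3 and 21.2 to 26.5 and 25.2 FPKM (0.30 ± 0.05, adjusted p = 0.00167). Dnajb1 (Hsp40), the J protein of the inducible Hsp70, rose from 31.5 and 32.1 to 38.9 and 38.8 FPKM (0.28 ± 0.05, adjusted p = 0.00248). Dnajc9 rose from 55.9 and 56.3 to 67.9 and 69.8 FPKM (0.29 ± 0.04, adjusted p = 0.00106). Hspa8 fell from 1845 and 1932 to 1582 and 1599 FPKM (-0.25 ± 0.05, adjusted p = 0.00481). For these 5 genes the DMSO and THZ1 libraries did not overlap, and the calls held without any 1 library. They are among the largest changes picked by rule, for which a lack of overlap was a condition. The other calls were small. Hspa5 (-0.17 ± 0.04) and Hspd1 (-0.17 ± 0.04) fell, but not without heterozygous THZ1 replicate 1 (adjusted p = 0.0775 and 0.0879) or replicate 2 (adjusted p = 0.0513 and 0.0531).

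Among the small changes, Hspb2 (0.25 ± 0.06) and Dnajc15 (0.20 ± 0.05) were called higher, each lost without 3 of the 4 heterozygous libraries. For Hspb2 these were DMSO replicate 1 and both THZ1 replicates (limma adjusted p = 0.128, 0.112 and 0.0559), and for Dnajc15 DMSO replicate 2 and both THZ1 replicates (0.0904, 0.0533 and 0.156). Dnajb4 (0.20 ± 0.05) was lost without DMSO replicate 2 (adjusted p = 0.106) or THZ1 replicate 2 (adjusted p = 0.156). Cct7 (0.12 ± 0.04) was lost without any 1 of these libraries (adjusted p = 0.0727 to 0.185), and Hsf1 (0.16 ± 0.05) without DMSO replicate 1 (adjusted p = 0.234) or a THZ1 replicate (adjusted p = 0.132 and 0.193). Both were also lost under all 3 other scalings (adjusted p = 0.0648 to 0.154 for Cct7 and 0.0565 to 0.145 for Hsf1), and Dnajb4 and Dnajc15 by library totals (adjusted p = 0.068 and 0.0683). Dnajb5 (-0.25 ± 0.08) and Dnajc11 (-0.19 ± 0.06) were lost without heterozygous DMSO replicate 2 (adjusted p = 0.197 and 0.152) or either THZ1 replicate (adjusted p of at least 0.127). Dnajc11 was also lost without DMSO replicate 1 (adjusted p = 0.0632), and Dnajb5 without either null DMSO library (adjusted p = 0.0575 and 0.0573). Hspb1, at 154 and 179 FPKM under DMSO and 180.0 and 197 FPKM under THZ1, differed by 0.18 ± 0.06 (adjusted p = 0.0615), and was called only without heterozygous DMSO replicate 2 (0.29, adjusted p = 0.00995). Dnaja1 differed by 0.13 ± 0.05 (adjusted p = 0.0711) and was called without null THZ1 replicate 1 or 2 (adjusted p = 0.0323 and 0.0324). No gene of the Hsp90 group and no TRiC subunit other than Cct7 passed the test here, though Hsp90ab1 did when scaled by library totals (-0.12, adjusted p = 0.0194). These were not shown to be unchanged: the widest of their differences was 0.11 ± 0.04 for Cct3 (adjusted p = 0.0602).

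The third comparison asked the same of the null line, where more genes were called. Hspa8 and a series of J proteins, led by Dnajc30, Dnajb5 and Dnajc11, fell, while Bag3, Hspb1, Hspa1b and Dnajb6 rose. Of the 71 members 23 were higher and 29 lower (73.2%), where 75.7% of all tested genes were called (24.6% higher, 51.1% lower). The median member differed by -0.02 and the median tested gene by -0.17. Scaling by the median of ratios moves that all-gene median to 0.03 and the members' split to 38 higher and 16 lower. The upper quartile gives 32 to 23 and library totals 15 to 34. All 4 scales are relative, so a gene said to rise rose against other RNA, and absolute amounts were not measured. Directions of the members called in this comparison and named below hold under all 4 scalings unless stated, and the larger differences are also given relative to the all-gene median.

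Bag3 rose from 29.2 and 28.8 to 43.0 and 42.5 FPKM (0.54 ± 0.05, limma adjusted p = 4.54e-07; 0.71 relative to the median gene). Hspb1 rose from 178 and 173 to 261 and 248 FPKM (0.53 ± 0.06, adjusted p = 6.81e-06; 0.71 relative). Hspa1b rose from 17.5 and 17.0 to 22.6 and 26.8 FPKM (0.49 ± 0.09, adjusted p = 0.000331; 0.66 relative), and its sum with Hspa1a from 19.1 and 18.5 to 24.1 and 27.7 FPKM. Dnajb6, a J protein that keeps polyglutamine chains soluble and whose match to the heat shock element is printed above, rose from 85.0 and 84.4 to 118 and 113 FPKM (0.44 ± 0.04; 0.61 relative). Of the other members with that match, Hspe1 and Hsph1 rose less and Hspd1 fell on the deposited scale, as given below. Dnajc9 rose by 0.33 ± 0.04 (0.51 relative). For Bag3, Hspb1, Hspa1b, Dnajb6 and Dnajc9 both THZ1 libraries lay above both DMSO libraries. All are among the largest rises picked by rule, for which this was a condition.

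Hspa8 fell from 1493 and 1424 to 819 and 868 FPKM (-0.79 ± 0.05, limma adjusted p = 1.7e-08; -0.62 relative to the median gene). It made up 18.2% and 17.8% of the summed member FPKM in null DMSO and 10.8% and 11.4% in null THZ1 libraries. Dnajc30, a mitochondrial J protein tied to ATP synthase, fell from 16.9 and 16.3 to 3.37 and 3.57 FPKM (-1.98 ± 0.10; -1.81 relative). Dnajb5 (Hsc40) fell from 10.6 and 10.2 to 2.31 and 2.50 FPKM (-1.75 ± 0.08; -1.57 relative). Dnajc11, a protein of the mitochondrial cristae complex, fell from 18.7 and 20.3 to 7.32 and 7.58 FPKM (-1.28 ± 0.06; -1.10 relative). Dnajc28 (-1.08 ± 0.10), Hspbap1, which binds Hspb1 (-1.06 ± 0.10), and Dnajb2 (-0.92 ± 0.05), which steers clients to the proteasome, fell next. The THZ1 libraries of all 7 genes lay below their DMSO libraries, with adjusted p of at most 7.59e-07. All but Hspa8 are among the largest falls picked by rule, for which this separation was a condition.

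Within the machines, genes moved apart. Of the cytosolic Hsp70 and Hsp110 genes 3 rose and 3 fell (3 to 1 with median-of-ratios scaling, 2 to 4 by library totals), beside 24.6% and 51.1% of all tested genes. Besides Hspa1b the risers were Hspa4l (0.28 ± 0.05) and Hsph1 (0.12 ± 0.04). The Hsph1 call was lost by library totals (0.03, adjusted p = 0.509), and without null DMSO replicate 2 (limma adjusted p = 0.0632) or null THZ1 replicate 2 (adjusted p = 0.0794). Dnaja1 (-0.31 ± 0.05) and Dnajb1 (-0.21 ± 0.05) fell, and Dnajb4 rose by 0.29 ± 0.05. Relative to the median gene Dnajb1 stood at -0.04, and with median-of-ratios scaling its difference was 0.01 (adjusted p = 0.843), while Dnaja1 was at -0.08 there (adjusted p = 0.114). The Hsp90 genes Hsp90aa1 and Hsp90ab1 differed by 0.04 ± 0.04 and 0.08 ± 0.04 (adjusted p = 0.372 and 0.0839), and both were called higher under median-of-ratios and upper-quartile scaling. Stip1 differed by -0.13 ± 0.04 (adjusted p = 0.00938), lost without null DMSO replicate 2 (adjusted p = 0.0575) or null THZ1 replicate 1 (adjusted p = 0.0588), and stood at 0.09 under median-of-ratios scaling (adjusted p = 0.0755). Hsf1 differed by -0.17 ± 0.05 (adjusted p = 0.00789) and by 0.05 under median-of-ratios scaling (adjusted p = 0.352). That call was also lost without null DMSO replicate 2 (adjusted p = 0.0774) or null THZ1 replicate 1 (adjusted p = 0.0628).

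Of the TRiC subunits, Cct6a fell from 196 and 189 to 143 and 147 FPKM (-0.40 ± 0.04, limma adjusted p = 8.58e-07) and Cct7 rose from 179 and 180.1 to 214 and 219 FPKM (0.27 ± 0.04, adjusted p = 2.13e-05). Cct3 rose by 0.15 ± 0.04, except under library totals (0.06, adjusted p = 0.141). Tcp1 (-0.21 ± 0.04) and Cct4 (-0.10 ± 0.04) fell, but with median-of-ratios scaling they stood at 0.02 (adjusted p = 0.64) and 0.13 (adjusted p = 0.015). The Cct4 call was lost without any of 5 libraries, both null THZ1, both heterozygous THZ1 and null DMSO replicate 1 (adjusted p = 0.0614 to 0.27). Upper-quartile scaling put Cct4 at -0.003 (adjusted p = 0.945). Cct2, Cct5 and Cct8 were at 0.05 ± 0.04, 0.05 ± 0.04 and 0.07 ± 0.04 on the deposited scale. They were called higher under median-of-ratios and also under upper-quartile scaling (adjusted p = 0.00701, 0.00726 and 0.00125 for the latter). Cct8 was also called without a level filter (adjusted p = 0.0346).

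Of the 12 members listed as ER chaperones, 6 rose and 5 fell (7 to 3 with median-of-ratios scaling, 4 to 5 by library totals), beside 24.6% and 51.1% of all tested genes. The 3 genes with the printed match again differed in direction: Hspa5 fell from 500.1 and 485 to 386 and 396 FPKM (-0.33 ± 0.04, limma adjusted p = 5.26e-06; -0.16 relative to the median gene). Hsp90b1 rose from 388 and 384 to 470.3 and 451 FPKM (0.26 ± 0.04, adjusted p = 8.89e-05), and Dnajc3 from 23.9 and 24.2 to 27.3 and 26.8 FPKM (0.16 ± 0.05, adjusted p = 0.00833). The Dnajc3 rise was not called under library totals (adjusted p = 0.179), nor without null DMSO replicate 1 and null THZ1 replicate 2 together (adjusted p = 0.0613). Dnajb9 fell from 19.1 and 17.5 to 11.8 and 12.3 FPKM (-0.56 ± 0.06; -0.39 relative), and Dnajb12, a membrane J protein of ER-associated degradation, differed by -0.86 ± 0.05. Dnajc1 (0.30 ± 0.06), Dnajb14 (0.26 ± 0.06), Dnajb11 (0.19 ± 0.04) and Dnajc10 (0.18 ± 0.04) rose, the last not under library totals (adjusted p = 0.0592). Of the 8 members listed as mitochondrial chaperones, 2 rose and 4 fell. Dnaja3 fell further, from 28.5 and 27.4 to 18.7 and 18.1 FPKM (-0.58 ± 0.05), whereas Hspa9 stayed near its DMSO level at 268 and 267 FPKM (0.04 ± 0.04, adjusted p = 0.351) and was called higher under 2 scalings. Hspd1 (-0.18 ± 0.04) fell and Hspe1 (0.16 ± 0.04) rose, though under median-of-ratios scaling Hspd1 stood at 0.05 (adjusted p = 0.274) and under library totals Hspe1 at 0.07 (adjusted p = 0.118). The ratio of Hspd1 to Hspe1 FPKM was 1.17 and 1.14 in null DMSO and 0.872 and 0.95 in null THZ1 libraries.

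**Figure D3:**
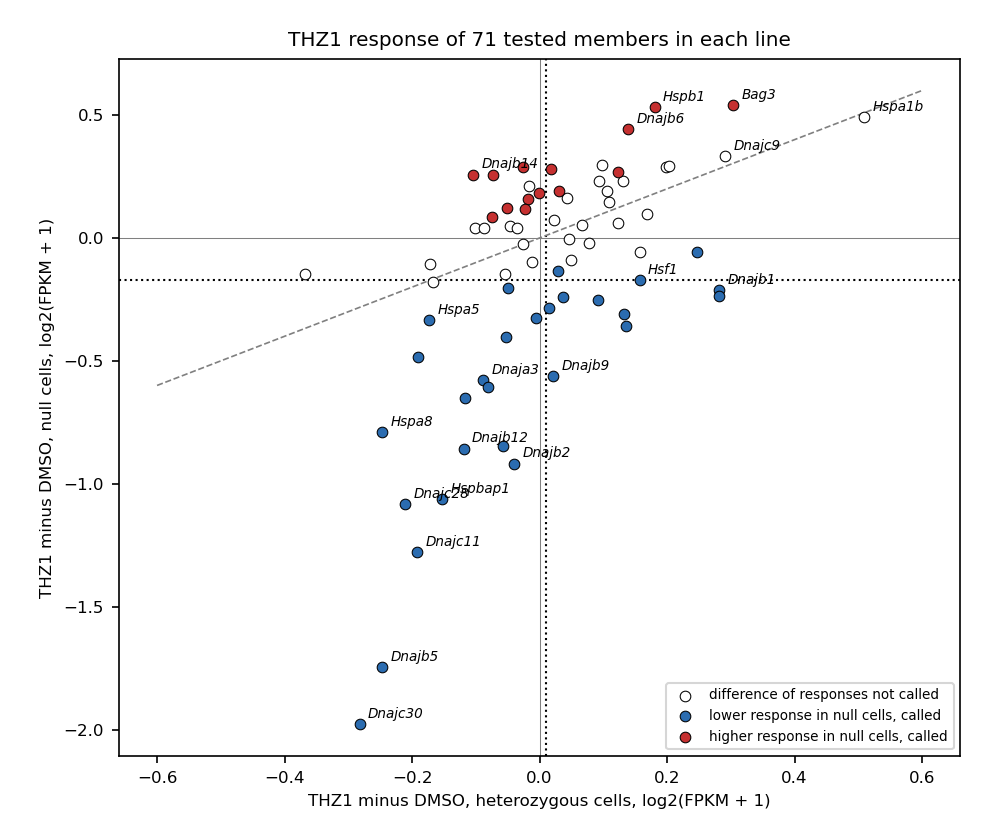
Response to THZ1 of the 71 tested members in heterozygous (x axis) and null cells (y axis), in log2(FPKM + 1), with points coloured where the difference between the 2 responses passed an adjusted p of 0.05. Dotted lines are the medians of all tested genes and the dashed line marks equal responses; Hspa1b lies near it (0.51 and 0.49), while Dnajc30 (-1.98), Dnajb5 (-1.75) and Dnajc11 (-1.28) lie far below it.

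Setting the 2 responses side by side, 7 members were called higher in both lines and 5 lower in both. Another 2, Dnajb1 and Hsf1, were called higher in heterozygous and lower in null cells. The Hsf1 calls were both lost under median-of-ratios and upper-quartile scaling. This cross-count was not made over all tested genes, of which 22.4% were called in heterozygous and 75.7% in null cells. The test of the difference, null response minus heterozygous response, called 14 members higher and 28 lower (59.2%), where 60.2% of all tested genes were called (15.1% higher, 45.1% lower). The median member differed by -0.05 and the median tested gene by -0.19, a median that median-of-ratios scaling moves to 0.02. The members' split was then 35 higher and 15 lower, with the upper quartile 27 and 21, and with library totals 7 and 30. The count higher was 6 to 9 without heterozygous THZ1 replicate 1 or 2, null DMSO replicate 1 or 2, or null THZ1 replicate 1. For Hspa1b the responses differed by -0.02 ± 0.13 (limma adjusted p = 0.912), which does not show that they were equal.

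Among the members named by rule for this difference, the large falls and a few rises kept their call and sign in every alternative that could be fitted. Dnajc30 (-1.70 ± 0.14), Dnajb5 (-1.50 ± 0.11), Dnajc11 (-1.08 ± 0.08), Hspbap1 (-0.91 ± 0.14), Dnajb2 (-0.88 ± 0.07) and Dnajc28 (-0.87 ± 0.14) led the falls. Hspa8 fell more in null cells by -0.54 ± 0.07 (limma adjusted p = 2.96e-05), Dnaja3 by -0.49 ± 0.07 and Dnajb9 by -0.58 ± 0.08. Dnajb1 rose from 31.5 and 32.1 to 38.9 and 38.8 FPKM in heterozygous cells and went from 32.2 and 32.6 to 26.8 and 28.9 FPKM in null cells, a difference of -0.49 ± 0.07 (adjusted p = 6.04e-05; -0.31 relative to the median gene). On the other side were Hspb1 (0.35 ± 0.09), Hsp90b1 (0.33 ± 0.06), Dnajb14 (0.36 ± 0.09), Dnajb6 (0.30 ± 0.06) and Hspa4l (0.26 ± 0.07), whose means rose with THZ1 in null cells. In heterozygous cells the means of Hsp90b1 (461.5 to 438.6 FPKM) and Dnajb14 (7.235 to 6.66 FPKM) were lower with THZ1. The others were higher there, Hspa4l only from 28.0 to 28.34 FPKM. So Dnajb1 and Hspa1b, both textbook targets of Hsf1, rose together in heterozygous cells, whereas in null cells Hspa1b rose and Dnajb1 was not called higher under any scaling.

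The fifth comparison set the lines against each other under THZ1. Here 22 members were higher and 42 lower in null cells (90.1%), where 83.2% of all tested genes were called (25.1% higher, 58.1% lower), with medians of -0.31 for members and -0.28 for all tested genes. Median-of-ratios scaling moved the all-gene median to -0.005 and gave 32 higher and 30 lower, and the upper quartile 29 and 36. Of the 21 members called higher under DMSO, 16 were called higher under THZ1 too, 3 were called lower and 2 were not called. Of the 33 lower, 31 were called lower again and 2 were not called. Dnajb5 had a mean of 10.42 FPKM in null against 6.08 in heterozygous DMSO, and 2.405 against 4.96 FPKM under THZ1. This cross-count was not made over all tested genes. Hspa1b (1.00 ± 0.09), Dnajc1 (0.79 ± 0.06), Hspb6 (0.76 ± 0.07), Hspa9 (0.74 ± 0.04), Bag3 (0.70 ± 0.05) and Dnajb14 (0.63 ± 0.06) were highest in null cells. Dnajc30 (-1.83 ± 0.10), Hspbap1 (-1.46 ± 0.10), Dnaja3 (-1.29 ± 0.05), Dnajc11 (-1.24 ± 0.06), Dnajb12 (-0.92 ± 0.05) and Hspa8 (-0.92 ± 0.05) were lowest. Dnaja3 was at 47.2 and 45.6 FPKM in heterozygous and 18.7 and 18.1 FPKM in null THZ1 libraries, and Hspa8 at 1582 and 1599 FPKM in heterozygous and 819 and 868 FPKM in null cells. Hspa5 remained higher in null cells by 0.15 ± 0.04, while Hspd1 and Hspe1 differed by -0.70 ± 0.04 and -0.60 ± 0.04. Small negative differences changed sign with median-of-ratios scaling, namely those of Cct2, Cct5, Cct7, Tcp1, Hsp90aa1 and Hsph1.

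Summed by place, the members show where these changes weigh most. The cytosolic Hsp70 and Hsp110 genes, in which Hspa8 dominates, summed to 2152 and 2241 FPKM in heterozygous DMSO, 1888 and 1909 in heterozygous THZ1, 1757 and 1681 in null DMSO and 1077 and 1135 in null THZ1 libraries. The small heat shock proteins with Bag3 summed to 207 and 235, 246 and 261, 242 and 240.2 and 343 and 329 FPKM in the same order, highest in the null THZ1 libraries. The TRiC subunits summed to 1682 and 1698, 1734 and 1707, 1598 and 1546 and 1583 and 1579.8 FPKM. The ER genes summed to 1152 and 1137, 1079 and 1075, 1170.2 and 1146 and 1145 and 1131 FPKM, a narrow range over genes that moved in both directions. The mitochondrial genes summed to 835 and 849, 805 and 791, 686 and 691 and 664 and 665 FPKM, lower in every null library on the deposited scale. The sums are on the deposited scale and were not tested. Median-of-ratios factors were 1.07 and 1.07 in heterozygous THZ1 and 0.851 and 0.876 in null THZ1 libraries. Dividing by them puts the mitochondrial sums of null THZ1 above those of heterozygous THZ1 and widens the range of the ER sums.

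**Figure D4:**
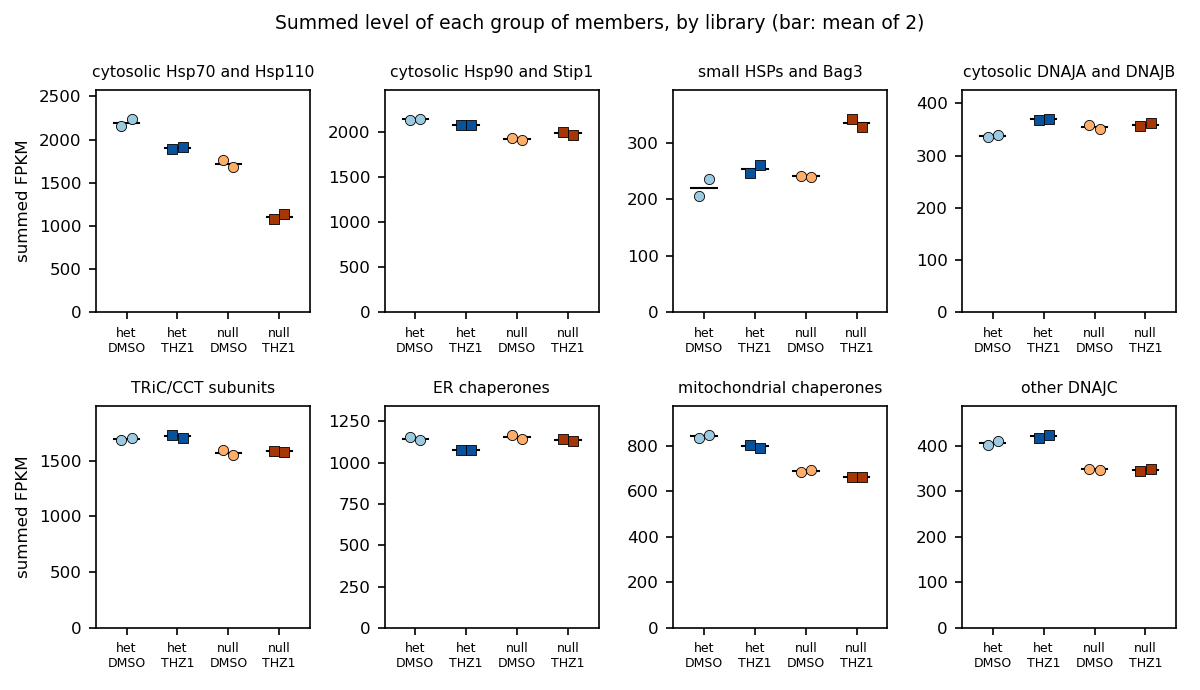
Summed FPKM of the members of 8 groups, 1 point per library and a bar at the mean of 2, with each axis starting at 0. On the deposited scale the Hsp70 and Hsp110 sum is lowest in the null THZ1 libraries (1077 and 1135 FPKM) and the small heat shock protein sum is highest there (343 and 329 FPKM). The mitochondrial sum is lower in all null libraries on that scale.

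Lists drawn by known regulation cut across these places. Hsf1 can induce 14 of the tested members, namely Hspa1b, Hspa8, Hspa4l, Hsph1, Hsp90aa1, Hsp90ab1, Stip1, Dnaja1, Dnajb1, Dnajb4, Hspb1, Bag3, Hspd1 and Hspe1. Of these, 4 were higher and 6 lower in null cells under DMSO, where 29% of all tested genes were higher and 41% lower. With THZ1 4 rose and 2 fell in heterozygous cells, beside 12.2% and 10.3% of all tested genes. In null cells 7 rose and 5 fell, beside 24.6% and 51.1%, and the split was 9 to 1 with median-of-ratios scaling and 5 to 5 by library totals. The unfolded protein response can induce Hspa5, Hspa13, Hsp90b1, Dnajb9, Dnajb11, Dnajc1, Dnajc3 and Dnajc10. Of these 8, 5 were higher and 2 lower under DMSO, 1 fell with THZ1 in heterozygous cells, and 5 rose and 2 fell in null cells (6 to 2 and 3 to 2 under the same scalings). The medians in null cells under THZ1 were 0.10 and 0.17, beside -0.17 for all tested genes.

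The partners of these machines that are not members moved in both directions too. A list of 20 genes held 17 cochaperones of Hsp70 and Hsp90, the small heat shock protein Cryab, the collagen chaperone Serpinh1 and Pdcd5. Of the 20, 5 were higher and 12 lower in null cells under DMSO, 5 rose and 0 fell with THZ1 in heterozygous cells, and 8 rose and 7 fell with it in null cells (13 to 4 with median-of-ratios scaling). The 17 cochaperones, set apart after the values were seen, counted 3 higher and 11 lower under DMSO, 3 and 0 with THZ1 in heterozygous cells, and 5 and 7 in null cells (10 to 4 with that scaling). Among the smallest limma adjusted p in null cells under THZ1 were the falls of Ptges3 (p23, -1.01 ± 0.05) and Bag2 (-1.18 ± 0.06), and the rise of Bag1 (0.52 ± 0.04). Prefoldin, which brings actin and tubulin to TRiC, had 1 subunit higher and 4 lower of 6 under DMSO, and Pfdn6 (-0.62 ± 0.04) fell with THZ1 in null cells while Pfdn5 (0.48 ± 0.04) rose. Of 12 other ER folding genes, 4 were higher and 6 lower under DMSO, with Sdf2l1 at -1.37 ± 0.08 and Sil1, which recharges Hspa5, at 0.78 ± 0.06. With THZ1 9 of the 12 rose and 1 fell in null cells (6 to 1 by library totals), led by P4hb (0.47 ± 0.04) and Pdia3 (0.38 ± 0.04), while 1 fell in heterozygous cells. Of 8 other mitochondrial folding genes, 3 were higher and 3 lower under DMSO, with Trap1, the mitochondrial Hsp90, at -0.70 ± 0.04. In null cells THZ1 lowered 5 and raised 1 on the deposited scale, with Clpp, the matrix protease, at -0.83 ± 0.05 and the smallest fall in Grpel1 (-0.21 ± 0.06). Beside all these counts, 29% of all tested genes were higher and 41% lower under DMSO. With THZ1 12.2% rose and 10.3% fell in heterozygous cells, and 24.6% rose and 51.1% fell in null cells.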

How the data were processed

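The authors deposited 1 table of FPKM values per library, without log transformation, listing 18631 genes by Entrez ID. The submitters' processing notes list Bowtie2, DESeq2 and build mm10 without versions. Which program made the FPKM values, with which annotation, strand setting and treatment of reads with several matches, is not given in the sources used here. RefSeq tables of GRCm38.p6, the assembly of mm10, gave symbols for 18592 IDs and promoter windows for 71 of the 87 members.

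Groups and replicate numbers came from the labels. Genes with a mean of at least 1 FPKM (10731) were taken as log2(FPKM + 1) on the deposited scale, and limma 3.58.1 in R 4.3.3 fitted 4 group means with a spread that follows the mean level (4 residual degrees of freedom). p-values are two-sided and Benjamini-Hochberg adjusted over all tested genes. The fit was tested on simulated data. The members and lists were chosen with earlier results of these data known, and 1 listed marker gene is not reported here. Named in every comparison were 33 genes, plus the 6 called members with the largest rise and the 6 with the largest fall whose libraries did not overlap (for the interaction, without that condition). The share of all tested genes whose libraries did not overlap was not counted. With 2 libraries per group, permutation cannot reach 0.05, so only limma was used. Alternatives were 3 scalings, 2 pseudocounts, 2 level filters, no trend, only the groups compared, a replicate block and leaving out each of 8 libraries. Leaving out null DMSO replicate 1 and null THZ1 replicate 2 together, which had more genes at 0.01 to 0.2 FPKM than the others, was chosen after seeing the data.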

Additional observations from a re-analysis of the deposited data

Results flagged for a closer look

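For 42 of the 71 tested members the response to THZ1 differed between the lines by the test of the difference itself (limma adjusted p below 0.05, null response minus heterozygous response). The 6 largest falls were those of Dnajc30 (-1.70), Dnajb5 (-1.50), Dnajc11 (-1.08), Hspbap1 (-0.91), Dnajb2 (-0.88) and Dnajc28 (-0.87). Dnajc14 (-0.79) and Dnajb12 (-0.74) came next. They were followed by Dnajb9 (-0.58), Hspa8 (-0.54), Dnajc17 (-0.53), Dnajc27 (-0.53), Dnajc12 (-0.52), Dnajb1 (-0.49), Dnaja3 (-0.49), Dnajc16 (-0.49), Dnaja1 (-0.44), Cct6a (-0.35), Dnajc21 (-0.34), Hsf1 (-0.33), Dnajc2 (-0.32), Hspb2 (-0.30), Hspa14 (-0.30), Hspb11 (-0.29) and Dnajc18 (-0.28). Median-of-ratios scaling lost the calls of Cct6a (adjusted p = 0.107), Hsf1 (0.263), Dnajc17 (0.0513), Dnajc12 (0.067), Dnajc21 (0.239), Dnajc2 (0.368), Hspb2 (0.507), Hspa14 (0.37), Hspb11 (0.54) and Dnajc18 (0.563). Leaving out 1 library could also end those of Dnajc12 (adjusted p up to 0.0656, without heterozygous THZ1 replicate 1), Hspb2 (0.055, without null DMSO replicate 2), Hspb11 (up to 0.137, without heterozygous THZ1 replicate 1) and Dnajc18 (up to 0.0828, without null THZ1 replicate 1).

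Stip1 (-0.16), Hspa5 (-0.16) and Tcp1 (-0.16) changed sign under that scaling. Without a single library they lost the call in several cases, the highest adjusted p being 0.0893 for Stip1 without heterozygous DMSO replicate 1, 0.0858 for Hspa5 without heterozygous THZ1 replicate 2 and 0.103 for Tcp1 without null DMSO replicate 1.

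On the other side stood Dnajb14 (0.36), Hspb1 (0.35), Hsp90b1 (0.33), Dnajb6 (0.30) and Hspa4l (0.26), which kept the call in every alternative that could be fitted. Dnajc5 (0.17) lost it without any of 4 libraries (adjusted p = 0.0535 to 0.0635), both heterozygous THZ1, null DMSO replicate 1 and null THZ1 replicate 1. Bag3 (0.24) lost it without heterozygous THZ1 replicate 2 (adjusted p = 0.0536). Dnajc25 (0.32) moved most with 1 library, to 0.19 without heterozygous THZ1 replicate 2 (adjusted p = 0.228). Dnajb11 (0.16) stood at 0.10 without null THZ1 replicate 1 (adjusted p = 0.186). Dnajc10 (0.19), Hspe1 (0.18), Hsp90ab1 (0.16), Cct7 (0.15) and Hsph1 (0.14) each lost the call without heterozygous THZ1 replicate 2 (adjusted p = 0.0804, 0.133, 0.111, 0.0997 and 0.118) and without some other libraries. Scaling by library totals also ended the calls of Dnajc5 (adjusted p = 0.0667), Dnajc25 (0.0782), Dnajb11 (0.0942) and Dnajc10 (0.0609). The same held for Hspe1 (0.0501), Cct7 (0.0921) and Hsph1 (0.139). No group has enough libraries to test for a single library that stands apart.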

How the results depend on the processing

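The counts of members called depended on scaling and, for THZ1 in heterozygous cells and for the difference between the responses, also on single libraries. For THZ1 in heterozygous cells, library totals gave 5 higher and 12 lower, the fit without a trend gave 6 higher, and leaving out 1 library gave 4 to 11 higher and 1 to 5 lower. For THZ1 in null cells, the median of ratios gave 38 higher and 16 lower and library totals 15 higher; without 1 library the ranges were 21 to 23 and 24 to 29. For the difference between the responses, the median of ratios gave 35 higher and 15 lower, the upper quartile 27 higher, library totals 7 higher, no trend 8 higher, and leaving out null DMSO replicate 1 and null THZ1 replicate 2 together 9 higher; without 1 library it was 6 to 12 higher and 22 to 27 lower. Between the lines the counts without 1 library were 17 to 21 and 29 to 34 under DMSO and 20 to 22 and 41 to 42 under THZ1. The cause was not tested, beyond the fewer samples in a fit that leaves libraries out.

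Median-of-ratios scaling changed the sign of single genes. For THZ1 in null cells these were Cct4 (0.13), Dnajb1 (0.011), Hsf1 (0.053), Hsf2 (0.15), Hspd1 (0.051), Stip1 (0.095) and Tcp1 (0.023), and for the difference between responses Cct4 (0.15), Cct5 (0.23), Hspa5 (0.078), Hspd1 (0.23), Stip1 (0.073) and Tcp1 (0.081). Between the lines under THZ1 they were Cct2 (0.26), Cct5 (0.037), Cct7 (0.18), Hsp90aa1 (0.034), Hsph1 (0.11) and Tcp1 (0.28), and with the upper quartile Cct2 (0.13), Cct7 (0.048) and Tcp1 (0.15). Of the named genes tested, 29 of 37 kept direction and call in every alternative for the lines under DMSO, 22 of 36 for THZ1 in heterozygous cells, 21 of 40 for THZ1 in null cells, 17 of 41 for the difference and 28 of 38 for the lines under THZ1.

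With the replicate number as a block, the counts of members higher and lower were 21 and 33 for the lines under DMSO, 10 and 5 and then 24 and 28 for THZ1 in heterozygous and null cells, 14 and 28 for the difference, and 22 and 42 for the lines under THZ1. Deviations of same-numbered libraries correlated at -0.0936 to 0.1391 over the pairs of groups, so the numbers were not shown to pair the samples. Members under 1 FPKM rest on few fragments and were not tested.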

Other observations

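Among the 16 members under the level filter, some differed between the lines as values without a test. Dnaja4, a J protein, was listed at 0 to 0.02 FPKM in the heterozygous libraries and at 0.30 to 0.51 FPKM in the null ones. Hspa12a, a distant Hsp70 relative, was at 0.89 to 1.33 FPKM in the heterozygous and 0.21 to 0.32 FPKM in the null libraries. Hspa12b was at 0.71 and 0.92 FPKM in null DMSO and 0.10 and 0.34 FPKM in null THZ1 libraries. Dnajc6 was listed at 0 in every library. These genes were chosen after their values were seen.

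In 11 tested members the promoter window held GAA and TTC with 2 bases between them, the shared site of Hspd1 and Hspe1 being counted for both. With THZ1 in null cells 7 were higher and 3 lower, with a median of 0.16 (8 to 1 with median-of-ratios scaling, 4 to 3 by library totals). In heterozygous cells 3 were higher and 1 lower, with a median of 0.13 (2 to 1 under both of these scalings). The 45 tested members with a window but no match counted 15 higher and 19 lower in null cells (median -0.02, 23 to 12 and 11 to 23 under those scalings). In heterozygous cells they counted 5 higher and 2 lower (median 0.02, 4 to 3 and 2 to 6 under those scalings). Of all tested genes 24.6% were higher and 51.1% lower in null cells, and 12.2% higher and 10.3% lower in heterozygous cells. The sets were not compared by a test, and no factor was measured on these sites.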
